A study of Mus musculus with 35 samples.

Results

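Cell cycle genes were measured in macrophages sorted from the livers of mice on 2 diets. The set held 46 genes, 19 that act in S phase, when DNA is copied, and 27 that act in G2 and mitosis. It was taken from a list of S and G2/M phase symbols. Expression is given as CPM, a gene's count per 1000000 counts of its library, with a scaled library size for the printed values. Symbols above 1 CPM in at least 5 of 35 samples were kept. All 46 met this limit, of 13421 genes that did so among 54735 symbols, and 45 were above 1 CPM in every one of the 35 samples. The exception was Cenpf, a centromere protein of mitosis, which was above 1 CPM in 32 samples. The lowest count of any member in any sample was 12.

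A dividing cell licenses its replication origins by loading the MCM helicase, raises its nucleotide supply, copies its DNA, and then builds a spindle on which kinases, motors and checkpoint proteins separate the chromosomes. Transcription of the S phase genes is driven mainly by E2F factors, and that of the G2/M genes by the MuvB complex with B-MYB and FOXM1. Kupffer cells (KCs), the resident macrophages of the liver sinusoids, maintain themselves largely by local division, and when they are lost monocytes from the blood can take their place.

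All mice were C57Bl/6J males that received their diet from 5 weeks of age. The Western diet (WD) was rich in fat and cholesterol, with fructose and sucrose added to the drinking water, and the controls received a standard diet (SD). Resident KCs (ResKCs, sorted as CLEC4F+ TIM4+) came from mice on SD for 12 weeks (n = 7), WD for 12 weeks (n = 5), SD for 24 weeks (n = 6) and WD for 24 weeks (n = 6). For the 5 samples titled WD for 12 weeks the separate diet label names the standard diet, and they were grouped by their titles. From mice on WD for 24 weeks there were also monocyte-derived KCs (moKCs, CLEC4F+ TIM4-, n = 5) and CLEC4F- macrophages (n = 6). No SD counterpart of the last 2 populations was analysed here, so neither has a diet comparison. The sources do not say whether samples with the same number share a mouse, so the p-values measure the spread between these samples.

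Each sample held 11568590 to 15163845 counts assigned to genes, so that 3 counts equal 0.198 to 0.259 CPM on the unscaled library sizes. The printed CPM values use the scaled library sizes, on which these limits differ slightly. The sorted populations were checked against their defining genes. Clec4f, the KC lectin used in the sort, averaged 12622 to 15105 CPM in the ResKC groups and 9844 CPM in moKCs, and Timd4, which encodes TIM4, averaged 732 to 1094 CPM in ResKCs against 12.5 CPM in moKCs and 8.2 CPM in CLEC4F- macrophages. One sample stood against its label: CLEC4F- macrophage replicate 4 held 5488 CPM of Clec4f, where the other 5 held 294 to 1539 CPM. The calls of cell cycle genes that rest on this group are given with and without it. Those of genes that mark other cell types are given only with it. The alignment file names in the file headers follow 2 schemes, one with 22 samples and one with 13. All ResKCs of WD at 12 weeks and of SD at 24 weeks belong to the first scheme, and the other groups are split. What the schemes stand for is not given in the sources used here.

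The first comparison asked whether the diet moved cell cycle transcripts in ResKCs at 24 weeks. Of the 46 genes, 20 rose on WD and 0 fell (edgeR quasi-likelihood test, Benjamini-Hochberg adjusted over all genes tested). Among all 13421 genes, 4.84% were called higher and 3.87% lower. The fitted log2 fold change was above 0 for all 46 members, against 50.7% of all genes, with a median of 0.80 and a range of 0.06 to 1.69. The rise was unequal along the cycle: 17 of 27 G2/M genes were called with a median log2 fold change of 0.96, but only 3 of 19 S phase genes with a median of 0.26. For 12 members, all of G2/M phase, no WD sample was as low as any SD sample, a pattern that 2.19% of all genes showed. With the added limit of a log2 fold change above 1 that the study applied to its own comparisons, 14 members were called (13 G2/M and 1 S phase), against 2.38% of all genes.

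Because the RNA is from bulk sorted cells, more cells in cycle and more of these transcripts per cell cannot be told apart from these data. By flow cytometry the paper found no difference between the diets in CLEC4F+ KCs positive for the division marker Ki-67. That is a protein measure on KCs with and without TIM4, and its relation to the RNA values was not tested. The number of calls depended on single samples: it was 8 without WD replicate 4, 9 without SD replicate 4, 12 without SD replicate 1 and 13 without SD replicate 6. The share of all genes called in these fits is not given here. Whether the members lost more calls than other genes therefore cannot be read from these counts. Over the 12 fits that left out one sample, Plk1, Foxm1, Mki67, Cenpf, Aurkb, Kif20a and Tpx2 were called in all, but Ccna2 in 3, Anln in 5, and Uhrf1, Ccnb1 and Cdc20 in 6, while all 46 members had a fitted fold change above 0 with each of 11 other tools, scalings, filters, covariates or subsets of samples.

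**Figure D1:**
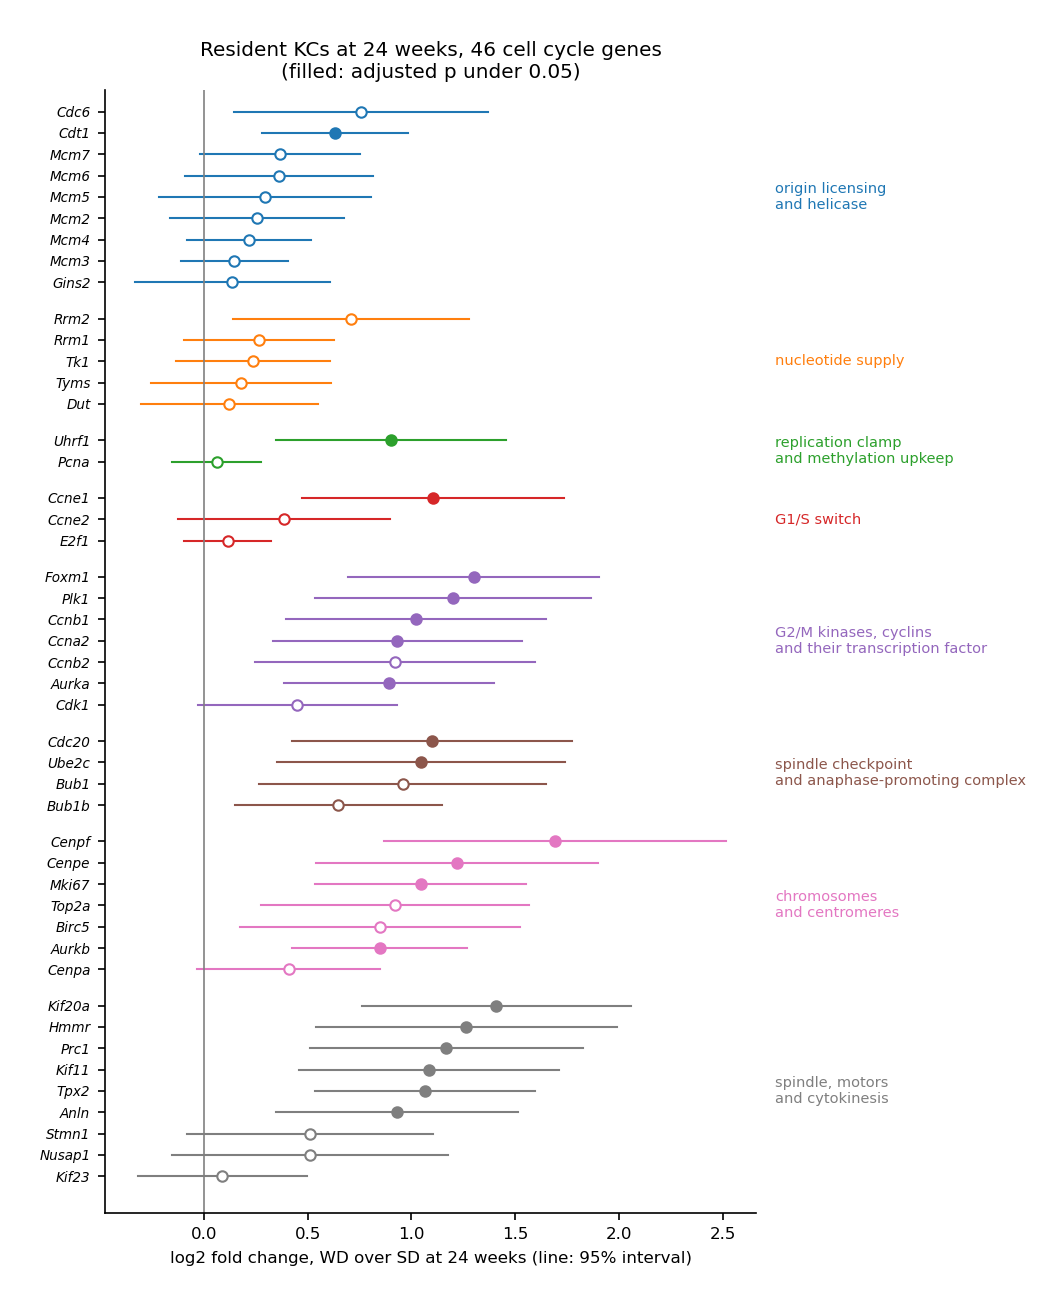
Fitted log2 fold change of each of the 46 genes in ResKCs, WD against SD at 24 weeks, with 95% confidence intervals, the genes grouped by role and filled where called. All 46 points lie above 0, with medians of 1.06 for the spindle group and 0.93 for the kinase group against 0.30 for the helicase group and 0.24 for nucleotide supply.

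The kinases, cyclins and regulators that start mitosis gave 5 calls among 7 members, with a median log2 fold change of 0.93. Plk1, a kinase needed from mitotic entry to cytokinesis, was at 4.26 to 8.32 CPM (median 6.35) in the 6 SD samples and at 9.94 to 19.7 CPM (median 14.4) in the 6 WD samples. No WD sample was as low as an SD sample, and Plk1 rose by 1.20 on the log2 scale (adjusted p = 0.0194). Foxm1 (chr6:128362967-128376146, plus strand, GRCm38), the transcription factor of the G2/M programme, was at 3.03 to 10.9 CPM (median 5.40) on SD and at 10.7 to 23.9 CPM (median 11.6) on WD. The groups met only in SD replicate 3, the single SD sample above 5.60 CPM, and the fold change was 1.30 (SE 0.30, adjusted p = 0.00608). Ccnb1, the B-type cyclin of mitosis, rose by 1.02 (adjusted p = 0.0339) and Ccna2, the A-type cyclin of S and G2 phase, by 0.93 (adjusted p = 0.0429). The fifth called member was Aurka, a centrosome kinase, with 0.89 (adjusted p = 0.0224). Cdk1 (chr10:69335146-69352938, minus strand), the kinase that drives entry into mitosis, was at 16.6 to 31.9 CPM on SD and 22.4 to 44.9 CPM on WD. Its groups overlapped and its fold change of 0.45 missed the threshold (adjusted p = 0.231), as did the 0.92 of Ccnb2, a second B-type cyclin (adjusted p = 0.0765).

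The 9 genes of the spindle, its motors and cytokinesis gave 6 calls and a median of 1.06. Kif20a, a kinesin that carries regulators to the midzone of the dividing cell, had the lowest adjusted p of all members. It was at 3.75 to 9.26 CPM (median 5.59) on SD and at 12.3 to 27.7 CPM (median 13.5) on WD. The groups were separate, with 5 WD samples between 12.3 and 15.7 CPM and replicate 4 above them, and the fold change was 1.41 (SE 0.32, adjusted p = 0.00548). Prc1, which bundles the microtubules of the midzone, was at 7.34 to 14.0 CPM on SD and 19.1 to 29.0 CPM on WD (fold change 1.17, adjusted p = 0.0209). Tpx2, a spindle assembly factor that activates Aurora A, was at 7.21 to 13.2 CPM on SD and 17.0 to 25.8 CPM on WD (1.06, adjusted p = 0.0095). Neither of these genes had a WD sample within the SD range. Kif11, the motor that pushes the spindle poles apart, rose by 1.08 (adjusted p = 0.024), Hmmr, a spindle microtubule protein, by 1.26 (adjusted p = 0.0232) and Anln, a scaffold of the contractile ring, by 0.93 (adjusted p = 0.0379). Nusap1 (mean 8.61 CPM on SD and 12.3 CPM on WD) and Stmn1 (18.7 CPM and 26.7 CPM) were fitted higher on WD but not called.

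Kif23 (chr9:61915905-61946774, minus strand), a motor of the central spindle, stood apart from these genes. It was at 41.5 to 64.6 CPM (median 55.8) on SD and at 47.1 to 67.5 CPM (median 59.5) on WD. The groups overlapped almost entirely, and the fold change of 0.09 had a 95% confidence interval of -0.32 to 0.50 (adjusted p = 0.827).

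Among 7 genes of mitotic chromosomes and centromeres 4 were called, with a median of 0.92. Mki67 (chr7:135689784-135716361, minus strand), which encodes the proliferation marker Ki-67, a coat of mitotic chromosomes, was at 17.3 to 29.7 CPM on SD (mean 22.7 ± 4.78, SD, n = 6) and at 28.8 to 67.4 CPM on WD (46.8 ± 13.4, n = 6). The groups overlapped only at the edge, where the highest SD sample passed the lowest WD sample, and Mki67 rose by 1.04 (SE 0.25, adjusted p = 0.00826). Cenpf had the widest fold change of the set, 1.69 (SE 0.41, adjusted p = 0.00836), from 0.938 to 6.15 CPM (median 1.51) on SD to 6.70 to 10.2 CPM (median 8.10) on WD. The SD samples included 2 below 1 CPM, and no WD sample fell within the SD range. Cenpe, the kinetochore motor that aligns chromosomes, rose by 1.22 (adjusted p = 0.0199), and Aurkb, the kinase of the chromosomal passenger complex, by 0.85 (adjusted p = 0.00991). Birc5, which encodes survivin of the same complex, had separate groups, 6.35 to 14.3 CPM against 14.8 to 33.6 CPM, yet its fold change of 0.85 was not called (adjusted p = 0.103). Top2a (chr11:98992943-99024189, minus strand), the topoisomerase that untangles sister chromatids, was at 18.2 to 40.8 CPM on SD and 33.6 to 77.7 CPM on WD (0.92, adjusted p = 0.0622). Cenpa (chr5:30666777-30674830, plus strand), the histone H3 variant of centromeres, had a fold change of 0.41 (adjusted p = 0.238).

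The 4 genes of the spindle checkpoint and the anaphase-promoting complex gave 2 calls. Cdc20, the activator of that ubiquitin ligase in mitosis, was at 3.42 to 11.4 CPM on SD and at 12.3 to 19.2 CPM on WD (fold change 1.099, adjusted p = 0.0341), and Ube2c, its ubiquitin-conjugating enzyme, at 8.97 to 17.2 CPM and 19.3 to 34.8 CPM (1.05, adjusted p = 0.0491). Both had separate groups, although Ube2c was called in only 1 of 12 fits that left out one sample of these groups. Bub1b (chr2:118598211-118641591, plus strand), a checkpoint kinase relative, was at 12.4 to 24.6 CPM on SD and at 21.1 to 42.1 CPM on WD (0.65, adjusted p = 0.0913), and Bub1, a checkpoint kinase, had a fold change of 0.96 (adjusted p = 0.0707).

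In S phase, 1 of 9 genes of origin licensing and the helicase was called. Cdt1, which loads the MCM helicase on origins, was at 11.7 to 17.1 CPM (median 13.7) on SD and at 14.1 to 30.03 CPM (median 22.5) on WD, a rise of 0.63 (SE 0.17, adjusted p = 0.0201). The 6 helicase subunits had fold changes of 0.15 (Mcm3) to 0.37 (Mcm7), none of them called. Mcm3 (chr1:20802968-20820312, minus strand) was at 79.2 to 96.4 CPM on SD and 73.3 to 115 CPM on WD, so that the SD range lay inside the WD range, and its 95% confidence interval of -0.11 to 0.40 excludes the rise seen for Mki67. Cdc6, the loading partner of Cdt1, had a fold change of 0.76 (adjusted p = 0.108).

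None of the 5 genes of nucleotide supply was called, with a median of 0.24. Rrm1 (chr7:102441695-102469771, plus strand), the large subunit of ribonucleotide reductase, was at 37.7 to 67.5 CPM on SD and 53.1 to 89.9 CPM on WD (0.26, adjusted p = 0.374). Rrm2, the subunit of the same enzyme that is made in S phase, had a fold change of 0.71 (adjusted p = 0.106). Pcna (chr2:132249162-132253314, minus strand), the sliding clamp of the replication fork, had the lowest fold change of the set, 0.06 with a 95% confidence interval of -0.15 to 0.27 (adjusted p = 0.767), from 53.2 to 64.8 CPM on SD and 51.7 to 71.9 CPM on WD. Uhrf1, which hands DNA methylation on to the new strand, was at 13.3 to 25.5 CPM on SD and 20.3 to 49.9 CPM on WD and rose by 0.90 (SE 0.27, adjusted p = 0.0342). Of the G1/S switch, Ccne1, a cyclin that opens S phase, rose by 1.104 (SE 0.31, adjusted p = 0.0229), from 1.96 to 4.56 CPM on SD to 2.84 to 9.71 CPM on WD. E2f1 (chr2:154559407-154569892, minus strand), an activating E2F factor, had a fold change of 0.11 (adjusted p = 0.532).

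Other transcripts moved with the same comparison, and their part in it was not tested. Immediate-early and heat-shock genes, which respond to tissue digestion, were lower on WD: 6 of 10 were called lower, and their summed level was 853 to 3839 CPM (median 1606) on WD against 1861 to 10175 CPM (median 6727) on SD. With the mean log2 CPM of these genes as a covariate 8 of the 46 cell cycle genes were called, all of them higher. The members' median log2 fold change was then 0.85 (0.80 without the covariate), against 0.01 over all genes. The share of all genes called is not given here for this fit or for the other covariate and subset fits of this paragraph. Of 6 genes that mark CLEC4F- macrophages 3 were called higher, with sums of 103.5 to 616.3 CPM on WD and 9.1 to 23.0 CPM on SD, and of 10 hepatocyte genes 2 were called higher, with sums of 1100 to 3712 CPM against 421 to 1490 CPM. With the mean log2 CPM of the hepatocyte genes as a covariate 24 cell cycle genes were called (median 0.94, against 0.006 over all genes). Neutrophil and precursor genes summed to 1.5 to 6.3 CPM on WD and 0.8 to 4.3 CPM on SD, with 2 of 10 genes past the expression limit and 6 of 10 at 0 in all SD samples. B cell genes summed to 10.3 to 28.8 CPM on WD and 21.1 to 55.7 CPM on SD, a difference carried by Cd79b (-1.29, called lower), while the other 4 of 5 were fitted higher and not called. None of 7 resident KC markers was called, although 6 of 7 were fitted lower on WD, and Timd4 (547.1 to 885.4 CPM on WD, 885.4 to 1127 CPM on SD, fold change -0.49, adjusted p = 0.333) and Vsig4 (-0.31, adjusted p = 0.414) had no WD sample above the lowest SD sample. Single genes were called higher in the lists of T cells (Trac, list sums of 3.45 to 6.43 CPM on WD and 2.81 to 7.02 CPM on SD), monocytes (F13a1, 87.6 to 164.6 against 115.8 to 220.6 CPM) and dendritic cells (Clec9a, 10.1 to 21.2 against 10.96 to 19.5 CPM), and in that of cholangiocytes (Spp1, also on the CLEC4F- macrophage list, 4.90 to 48.3 against 0.394 to 8.80 CPM). Single genes were called lower in the lists of endothelial cells (Pecam1, 802 to 1233 against 1110 to 1972 CPM, all 7 fitted lower), stellate cells (Dcn, 37.1 to 101.5 against 61.4 to 179 CPM) and macrophages (Lyz2, 17857 to 23817 against 24399 to 28791 CPM). No NK cell or erythroid gene was called. Within the first naming scheme alone, with 3 WD and 6 SD samples, 12 members were called with a median of 0.76, against -0.005 over all genes. The difference in the mean of log2 CPM over members was 0.70 there, against 0.72 over all samples.

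Promoters are shown for the 3 called members with the lowest adjusted p among those considered that have an entry in the RefSeq promoter table, and for Kif23, the spindle gene that stood apart. Genes on a chromosome left out of this display, among them Kif20a, were not considered. The windows span 250 bases before to 30 bases after the start of transcription in GRCm38.p6, and 37 of the 46 members have an entry. Capitals mark the cell cycle homology region (CHR, read as TTTGAA or TTCGAA) through which MuvB binds, the CCAAT box (CCAAT) bound by NF-Y, and E2F sites (TTTGGCGC, TTTCGCGC, TTTCCCGC or TTTGCCGC). Each was searched on both strands and a base may belong to more than one of them. The windows are chr7:135716350-135716629 (minus) for Mki67, chr1:189688057-189688336 (minus) for Cenpf, chr7:122159185-122159464 (plus) for Plk1 and chr9:61946770-61947049 (minus) for Kif23, each printed 5′ to 3′ on the strand of the gene.
Mki67: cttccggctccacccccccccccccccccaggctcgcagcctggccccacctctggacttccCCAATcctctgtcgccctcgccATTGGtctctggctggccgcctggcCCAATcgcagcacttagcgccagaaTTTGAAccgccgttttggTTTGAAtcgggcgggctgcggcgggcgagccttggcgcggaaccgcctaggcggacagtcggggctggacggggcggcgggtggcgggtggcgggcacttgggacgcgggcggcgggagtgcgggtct
Cenpf: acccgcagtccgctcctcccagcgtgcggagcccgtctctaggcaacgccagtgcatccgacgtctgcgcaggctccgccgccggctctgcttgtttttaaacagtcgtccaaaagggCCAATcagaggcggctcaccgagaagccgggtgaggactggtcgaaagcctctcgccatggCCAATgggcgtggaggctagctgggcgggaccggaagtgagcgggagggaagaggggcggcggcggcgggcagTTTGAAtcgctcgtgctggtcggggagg
Plk1: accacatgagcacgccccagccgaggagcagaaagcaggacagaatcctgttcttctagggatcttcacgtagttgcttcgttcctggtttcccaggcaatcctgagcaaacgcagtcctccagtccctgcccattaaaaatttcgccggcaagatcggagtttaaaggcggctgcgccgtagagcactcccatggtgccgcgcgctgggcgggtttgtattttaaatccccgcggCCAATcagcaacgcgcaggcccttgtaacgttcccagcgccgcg
Kif23: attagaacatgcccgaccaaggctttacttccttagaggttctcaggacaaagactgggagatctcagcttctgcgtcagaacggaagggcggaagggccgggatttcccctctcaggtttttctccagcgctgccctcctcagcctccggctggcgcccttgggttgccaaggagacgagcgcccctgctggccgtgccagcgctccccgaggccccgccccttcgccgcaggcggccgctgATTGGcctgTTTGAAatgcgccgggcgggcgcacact
The Mki67 window holds 2 CHR matches and 3 CCAAT boxes and that of Cenpf 1 and 2. Plk1 has a CCAAT box at bases -14 to -10 from the start and no match to either CHR word. Kif23 has a CCAAT box at -7 to -3 and a CHR match at 3 to 8, and it is the only gene shown that was not called. The promoters of the other uncalled G2/M members are not shown, so no relation between letters and calls is drawn.

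A CHR word was found in 15 of 21 G2/M promoters (71.4%) and in 2 of 16 S phase promoters (12.5%), against 20.9% of the promoters of all genes in the table. The CCAAT box was found in 18 of 21 G2/M promoters (85.7%) and 9 of 16 S phase promoters (56.2%), against 39.7% of all. For the E2F words the order was the other way round, with 6 of 16 S phase promoters (37.5%), 1 of 21 G2/M promoters (4.76%) and 2.45% of all. These are matches of letters and not tests of binding.

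**Figure D2:**
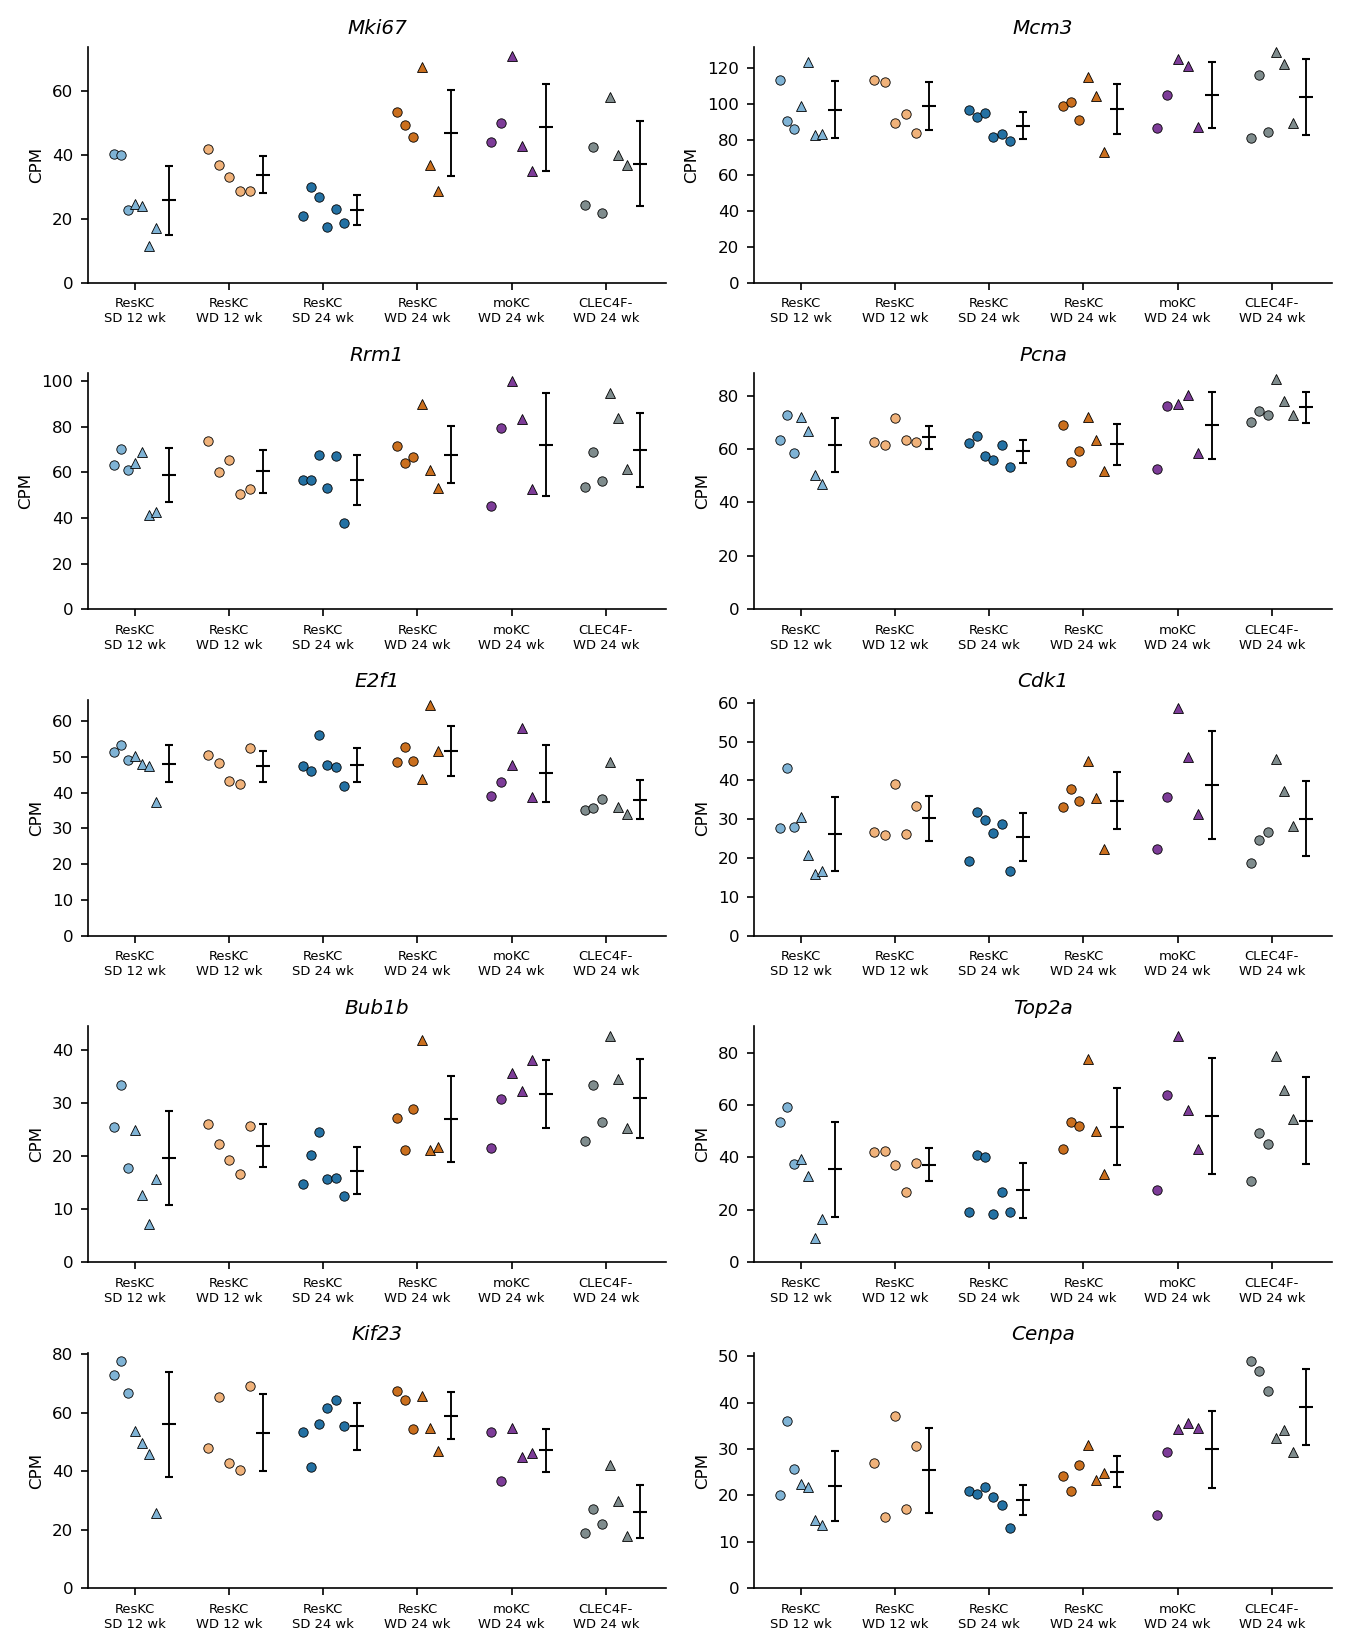
CPM of individual cell cycle genes in every sample of the 6 groups, with circles and triangles for the 2 naming schemes and bars for the mean ± SD. In ResKCs at 24 weeks Mki67 averages 46.8 CPM on WD and 22.7 CPM on SD while Pcna and Mcm3 overlap, and Kif23 has its lowest group mean in CLEC4F- macrophages.

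At 12 weeks the diet comparison in ResKCs, which like the interaction and the WD time comparison rests on the titles of the 5 WD samples, gave no call among the 46 genes (edgeR quasi-likelihood test), with 1 member at an unadjusted p under 0.05. Few genes were called at all at this time, 0.0373% of those tested, while 8.73% had an unadjusted p under 0.05. The members' median log2 fold change was 0.22, with a range of -0.17 to 0.54, and 41 of 46 were fitted higher on WD. The lowest adjusted p, 0.560, belonged to Ccne2, the second E-type cyclin (0.53). Mki67 was at 11.4 to 40.4 CPM (median 23.9) in the 7 SD samples and at 41.9, 36.9, 32.9, 28.8 and 28.5 CPM in the 5 WD samples. Cdk1 was at 15.8 to 43.3 CPM (median 27.8) on SD and at 26.8, 25.8, 39.0, 26.2 and 33.3 CPM on WD. For both genes the SD samples were widely spread and the WD samples overlapped them.

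The 2 SD samples lowest for Mki67 were low over the whole set. The mean of the members' centred log2 CPM, used here as a score, was -1.23 in SD replicate 6 and -0.98 in SD replicate 7 at 12 weeks, while the other 5 lay between -0.19 and 0.38. Both belong to the second naming scheme. The score of WD minus that of SD at 12 weeks was 0.32 over all samples, 0.17 to 0.43 when one sample was left out, and -0.08 within the first scheme (3 SD and 5 WD samples), so its direction was not the same within that scheme.

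**Figure D3:**
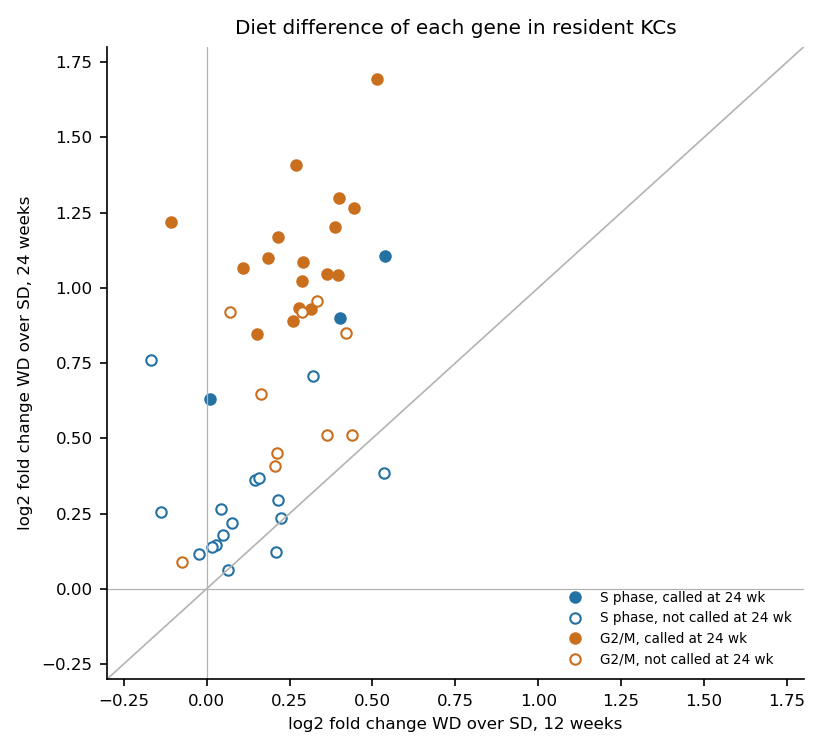
Fitted log2 fold change of WD against SD in ResKCs at 12 weeks (x axis) and at 24 weeks (y axis) for the 46 genes, S phase in blue and G2/M in orange, filled where called at 24 weeks, with the diagonal of equal values. The 12-week values lie between -0.17 and 0.54, and the 24-week values of G2/M genes reach 1.69.

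The difference between the diet effects at 24 and 12 weeks was tested as an interaction. None of the 46 members was called, and 0.283% of all genes were. An unadjusted p under 0.05 was found for 9 members and for 14.1% of all genes. The fitted difference was above 0 for 43 members, with a median of 0.53. It was widest for Cenpe (1.33, SE 0.47, adjusted p = 0.189), and for Tpx2 it was 0.95 (adjusted p = 0.223). Without SD replicates 6 and 7 of 12 weeks, an alternative chosen after seeing the data, Cenpe was called (1.69, SE 0.34, adjusted p = 0.0292), 1 of 20 genes called in that fit. With all samples, and in each of the 24 fits that left out one sample, no member was called, so the larger number of calls at 24 weeks is not shown to be a difference between the times.

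Comparing times within a diet gave no call. From 12 to 24 weeks on SD the members' median was -0.24, 43 of 46 were fitted lower, 3 had an unadjusted p under 0.05, and the range was -0.81 (Cenpe) to 0.44 (lowest adjusted p 0.454). Among all genes 0% were called here, although 1208 had an unadjusted p under 0.05. On WD the median was 0.26, 40 of 46 were fitted higher, and 1 had an unadjusted p under 0.05, as had 18.8% of all genes. Foxm1 had the widest value, 0.67 (adjusted p = 0.228), where 3.26% of all genes were called. The 24-week diet comparison thus set a WD group with values somewhat above those at 12 weeks against an SD group with values somewhat below, neither step being called on its own. Within the first naming scheme the score of SD at 24 minus 12 weeks was -0.57 (6 and 3 samples; G2/M genes -0.80), against -0.16 over all samples, and that of WD was 0.21, against 0.23.

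**Figure D4:**
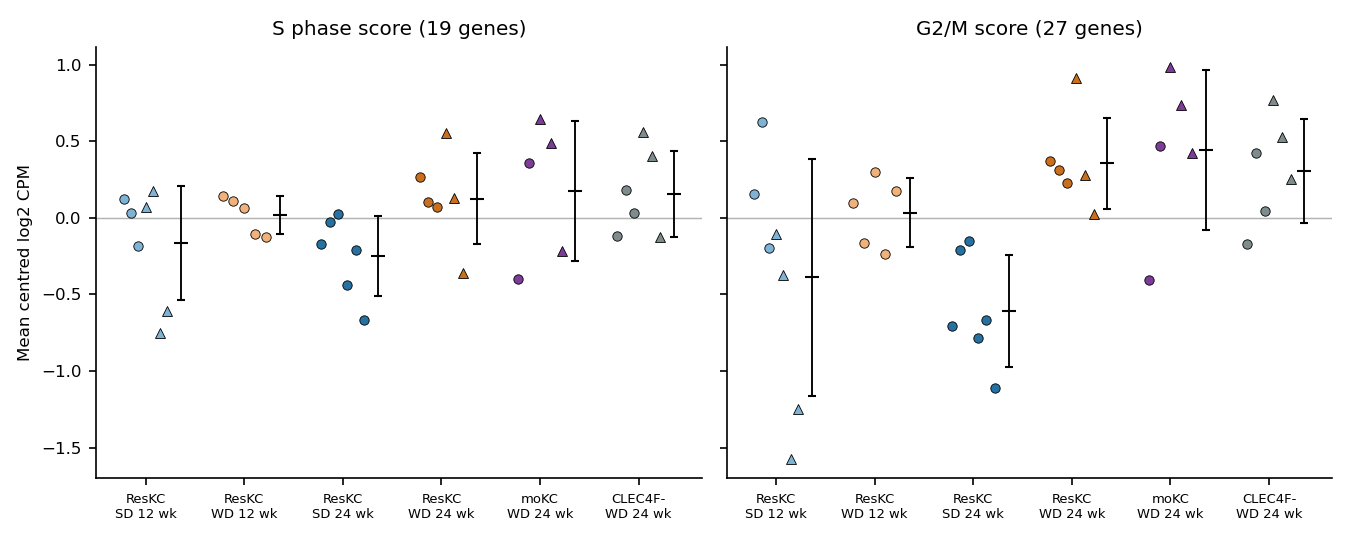
Mean centred log2 CPM over the 19 S phase genes (left) and the 27 G2/M genes (right) in each sample of the 6 groups, circles and triangles marking the naming schemes and bars the mean ± SD. For G2/M genes the 6 ResKC samples of WD at 24 weeks (0.03 to 0.91) lie above the 6 of SD (-1.11 to -0.15).

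As group means over all 46 genes, the score was -0.46 (SD 0.32) in ResKCs on SD for 24 weeks, -0.30 (0.59) on SD for 12 weeks, 0.03 (0.15) on WD for 12 weeks and 0.26 (0.29) on WD for 24 weeks. It was 0.24 (0.31) in CLEC4F- macrophages and 0.33 (0.48) in moKCs. The 3 WD populations of 24 weeks differed from each other by less than the spread within each of them. The G2/M score ran from -0.61 (0.36) on SD to 0.35 (0.30) on WD at 24 weeks, a difference of 0.96, and the S phase score differed by 0.37. The 46 genes together took a median of 0.0979% of all counts in ResKCs on SD for 24 weeks, 0.137% on WD, 0.168% in moKCs and 0.152% in CLEC4F- macrophages.

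Among the 3 macrophage populations of WD-fed livers at 24 weeks, ResKCs and moKCs were compared first. None of the 46 genes was called, while 2.99% of all genes were. None of the 46 had an unadjusted p under 0.05, against 15.9% of all genes. The median log2 fold change of ResKCs over moKCs was -0.11, in a range of -0.43 to 0.32. The lowest adjusted p was 0.415. Mki67 was at 28.8 to 67.4 CPM (median 47.5) in the 6 ResKC samples and at 44.1, 50.0, 70.7, 42.9 and 34.9 CPM in the 5 moKC samples. Top2a was at 33.6 to 77.7 CPM in ResKCs and at 27.7, 63.8, 86.3, 58.0 and 43.2 CPM in moKCs. The populations overlapped for both genes. The score spread more in moKCs (SD 0.48) than in ResKCs (SD 0.29), with moKC replicate 1 lowest at -0.40.

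ResKCs and CLEC4F- macrophages differed widely in other genes, with 17% of all genes called higher and 16.1% lower in ResKCs, but of the 46 members only 2 were called higher and 2 lower. The members' median was -0.04. Kif23 was the clearest, at 47.1 to 67.5 CPM (median 59.5) in ResKCs and 17.7 to 42.3 CPM (median 24.4) in CLEC4F- macrophages. No ResKC sample was as low as any CLEC4F- sample, the highest of which was replicate 4, and Kif23 was higher in ResKCs by 1.17 (SE 0.20, 95% confidence interval 0.76 to 1.58, adjusted p = 2.57e-05). E2f1 was at 43.7 to 64.3 CPM in ResKCs and at 34.0 to 48.7 CPM in CLEC4F- macrophages, the overlap coming from replicate 4 alone, and differed by 0.44 (SE 0.10, adjusted p = 0.001). Cenpa was lower in ResKCs, 20.9 to 30.9 CPM against 29.3 to 49.0 CPM (-0.63, SE 0.21, adjusted p = 0.0206). Pcna was lower as well, 51.7 to 71.9 CPM against 70.0 to 86.4 CPM (-0.29, SE 0.10, adjusted p = 0.0274).

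Without CLEC4F- replicate 4, the sample with high Clec4f, the differences were 1.36 for Kif23 (adjusted p = 1.93e-06), 0.53 for E2f1 (adjusted p = 0.000101), -0.68 for Cenpa (adjusted p = 0.0169) and -0.25 for Pcna, no longer called (adjusted p = 0.0691). The call of Cenpa was lost without CLEC4F- replicate 1 (-0.57, adjusted p = 0.0509). That of Pcna was also lost without any one of ResKC replicates 2, 3 and 6. All 5 B cell genes examined were lower in ResKCs, with sums of 10.3 to 28.8 CPM against 28.8 to 177.1 CPM in CLEC4F- macrophages. Also called lower were 1 of 1 NK cell, 1 of 3 T cell, 2 of 4 monocyte, 2 of 5 dendritic cell, 3 of 6 stellate cell, 1 of 2 cholangiocyte and 3 of 10 immediate-early or heat-shock genes, while 3 of 7 endothelial genes were called higher, and no hepatocyte, neutrophil or erythroid gene was called. The part of these transcripts in the differences was not tested.

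In moKCs against CLEC4F- macrophages, where 9.34% of all genes were called higher and 7.09% lower, Kif23 was the only member called. It was at 53.5, 36.7, 54.8, 44.9 and 46.2 CPM in moKCs, a difference of 0.85 (SE 0.21, adjusted p = 0.00429), and of 1.03 without CLEC4F- replicate 4 (adjusted p = 0.000321), where 2 members were called. Its moKC values overlapped those of CLEC4F- macrophages only through moKC replicate 2 and CLEC4F- replicate 4. With a replicate block and only the compared groups, the difference of Kif23 was 0.78 and not called (adjusted p = 0.0756). E2f1 differed by 0.26 and Cenpa by -0.38 (adjusted p = 0.285), neither called. Without CLEC4F- replicate 4, E2f1 was the second member called (0.34, adjusted p = 0.0201) and Cenpa was at -0.43 (adjusted p = 0.227). With all samples the members' median was 0.11. The comparisons with ResKCs and with moKCs share the CLEC4F- samples. In moKCs 2 of 5 B cell, 2 of 3 T cell, 2 of 4 monocyte, 2 of 5 dendritic cell and 1 of 2 cholangiocyte genes were called lower and 3 of 7 endothelial genes higher, and their part in the difference was not tested.

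**Figure D5:**
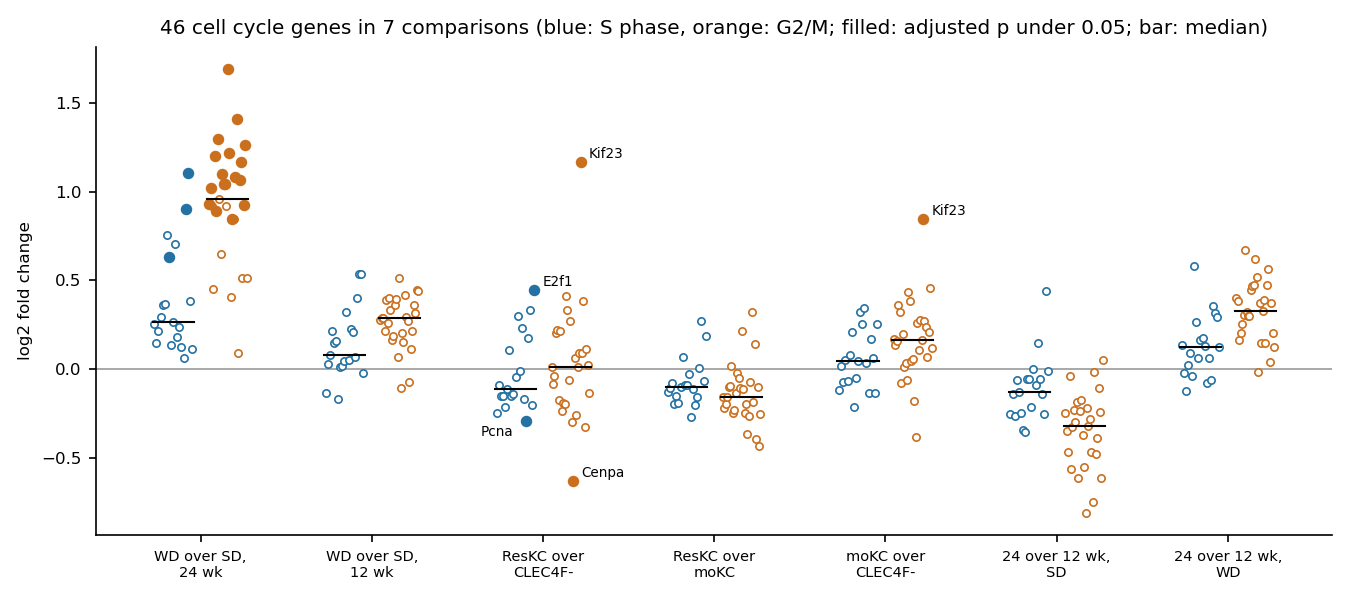
Fitted log2 fold changes of the 46 genes in 7 comparisons (the interaction is not drawn), 1 point per gene, S phase in blue and G2/M in orange, filled where called, with bars for the medians. The calls lie in the 24-week diet comparison (20 higher) and in the comparisons with CLEC4F- macrophages (Kif23 and E2f1 higher, Cenpa and Pcna lower in ResKCs, Kif23 higher in moKCs), and the other 4 drawn have none.

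The members also varied together between samples of one group. The correlation of each gene's deviations from its group means with the mean deviation of the other 45 had a median of 0.84 over the 35 samples, and 38 genes were above 0.7. These points share libraries and depth, and the value is a description. Stmn1, a microtubule destabiliser (0.95), Rrm2 (0.95) and Top2a (0.94) followed the others most closely. Cdt1 (0.36), E2f1 (0.49), Kif23 (0.50) and Cenpa (0.61) followed least, and these include 3 of the 4 members that differed between ResKCs and CLEC4F- macrophages. The SD of log2 CPM within groups had a median of 0.49 over the members and 0.27 over all genes.

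A wider list of 84 other cell cycle genes past the expression limit gave 15 calls higher (17.9%) and 0 lower on WD at 24 weeks, against 4.84% and 3.87% of all genes, with a median of 0.55 and 78 fitted higher. Smc4, a condensin subunit, was at 18.5 to 33.7 CPM on SD and 35.3 to 55.6 CPM on WD, with separate groups (0.74, adjusted p = 0.0014). Incenp, the scaffold of the passenger complex, rose by 0.53 (adjusted p = 0.00805) and Kif22, a chromosome-arm kinesin, by 1.14 (adjusted p = 0.0103). Against CLEC4F- macrophages, ResKCs had 3 of these genes higher (3.57%) and 4 lower (4.76%), shares well below those of all genes (17% and 16.1%), and the counts were the same without CLEC4F- replicate 4. Pttg1, which encodes securin, was higher by 0.39 Incenp by 0.36 (adjusted p = 0.028) and Chaf1b, a histone chaperone subunit of replication, by 0.40 (adjusted p = 0.0339), while Rfc2, a clamp loader subunit, was lower by 0.67 and Hmgb2, a chromatin protein of cycling cells, by 0.70 (adjusted p = 0.0047) and Rfc4, of the same clamp loader, by 0.60 (adjusted p = 0.0154). Without CLEC4F- replicate 4 Chaf1b was not called (0.38, adjusted p = 0.0564), and Pttg1 (0.39), Incenp (0.43), Rfc2 (-0.69), Hmgb2 (-0.71) and Rfc4 (-0.64) were. Over 12 fits that left out one sample, Incenp was called in 7 and Chaf1b in 6 (highest adjusted p 0.104). In moKCs against CLEC4F- macrophages 2 genes were higher (2.38%) and 1 lower (1.19%), again below the shares of all genes (9.34% and 7.09%). Pttg1 (0.41) and Gmnn, the licensing inhibitor geminin (0.46, adjusted p = 0.0434), were higher and Rfc2 lower (-0.48, adjusted p = 0.0066). Their values without CLEC4F- replicate 4 were 0.41, 0.53 and -0.501, all called, but Gmnn was called in only 3 of 11 fits that left out one sample (highest adjusted p 0.116). With the replicate block Gmnn (0.45, adjusted p = 0.0595) and Rfc2 (-0.53, adjusted p = 0.0924) were not called. In the other 5 comparisons none of the 84 was called.

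Of 48 brakes and entry regulators of the cycle, 3 were called higher and 3 lower on WD at 24 weeks, 6.25% each way, a share near the 4.84% and 3.87% of all genes. The list includes Cdh1, which in mice encodes E-cadherin rather than a brake and was called in none of the comparisons. Fzr1, which encodes the G1 activator CDH1 of the anaphase-promoting complex, rose by 0.37 (adjusted p = 0.00172), the phosphatase gene Cdc25a by 0.55 (adjusted p = 0.0158) and the G1 kinase gene Cdk6 by 0.67 (adjusted p = 0.0285). Klf2 fell by 1.46 (adjusted p = 0.00462), the antiproliferative gene Btg2 fell by 1.91 (adjusted p = 0.0174) and Klf4 fell by 2.07 (adjusted p = 0.0372). Klf4 was called in 3 and Cdk6 in 8 of the 12 fits that left out one sample. Klf2, Btg2 and Klf4 are also induced early in stressed or digested tissue. With the immediate-early and heat-shock covariate, none of these 3 was called: Klf2 stood at -0.53 (adjusted p = 0.0952), Btg2 at -0.32 (adjusted p = 0.266) and Klf4 at -0.49 (adjusted p = 0.515). Cdc25a at 0.45 (adjusted p = 0.138) and Cdk6 at 0.37 (adjusted p = 0.361) were not called there either. Cdkn1a, which encodes the CDK inhibitor p21, had a value of 0.70 that missed the threshold (adjusted p = 0.0675).

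From 12 to 24 weeks on WD, Cdkn1a rose by 1.37 (adjusted p = 0.00711), from 14.2 to 23.2 CPM at 12 weeks to 33.5 to 59.7 CPM at 24 weeks, with no overlap. Ccnd3, a D-type cyclin, rose by 0.63 (adjusted p = 0.0292) and Fzr1 by 0.28 (adjusted p = 0.0365), calls that held in 4 and 5 of 11 fits that left out one sample. Between ResKCs and CLEC4F- macrophages 5 of the 48 were higher (10.4%) and 7 lower (14.6%) in ResKCs, where 17% and 16.1% of all genes were called. Without CLEC4F- replicate 4 there were 5 (10.4%) and 11 (22.9%), where 17.97% and 16.4% of all genes were called, so that the share called lower lay below that of all genes with this sample and above it without. Csf1r, the receptor for the main macrophage growth factor, was higher by 0.87 E2f3, an activating E2F factor, by 0.73 (adjusted p = 0.00194) and Cdkn2b, which encodes the CDK4/6 inhibitor p15, by 3.29, from 0.139 to 0.950 CPM in CLEC4F- macrophages, the lowest of them under 3 counts, to 3.70 to 7.89 CPM in ResKCs. The D-type cyclin gene Ccnd2 was lower by 1.87, at 5.27 to 17.1 CPM in ResKCs and 23.1 to 52.1 CPM in CLEC4F- macrophages, E2f2 lower by 1.77 and Rb1 lower by 0.61. Without CLEC4F- replicate 4 these values were 0.96 for Csf1r, 0.76 for E2f3, 3.52 for Cdkn2b, -1.97 for Ccnd2, -1.903 for E2f2 and -0.704 for Rb1, all of them called. The moKCs had 2 genes higher than CLEC4F- macrophages, Csf1r (0.60) and Cdkn2b (2.204), and 5 lower (4.17% and 10.4%, where 9.34% and 7.09% of all genes were called), among them Rb1 (-0.65), E2f2 (-1.21, adjusted p = 0.0155) and Cdkn1a (-0.91, adjusted p = 0.0118). Cdkn2b in moKCs rested on replicate 1, without which the value was 0.95 (adjusted p = 0.146). With the replicate block Csf1r (0.60, adjusted p = 0.0667), Cdkn2b (1.61, adjusted p = 0.309), Rb1 and E2f2 were not called. Without CLEC4F- replicate 4, 3 genes were higher (6.25%) and 6 lower (12.5%), where 11.1% and 8.22% of all genes were called. The values were then 0.69 for Csf1r, 2.43 for Cdkn2b, -0.74 for Rb1, -1.35 for E2f2 and -1.03 for Cdkn1a, all called. No brake or entry regulator was called in the remaining 4 comparisons.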

How the data were processed

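RNA was taken from macrophages sorted by flow cytometry after liver digestion. Libraries were made with the TruSeq kit and sequenced on a NextSeq500 as single reads of 75 bases. According to the methods and the submitters' processing notes, the authors aligned reads with HISAT2 2.2.0 to mm10 and counted them per gene with featureCounts 2.0.0. The unit deposited is raw counts per gene symbol, 1 file per sample. The annotation, strand setting and treatment of multiply mapped reads are not given in the sources used here, so reads of related genes could be split between them. The study tested its own comparisons with limma.

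Counts were tested here with edgeR 4.0.16 (limma 3.58.1, R 4.3.3), with TMM normalisation and 1 quasi-likelihood fit of 6 group means to the 35 samples. Genes above 1 CPM in at least 5 samples were kept, p-values were Benjamini-Hochberg adjusted over all of them, and an adjusted p under 0.05 was called. The procedure was also run on simulated data, of which no result is given here. CPM are counts per 1000000 of the TMM-scaled library size, and scores average log2 CPM (prior count 2) centred per gene. The members and gene lists were chosen with earlier results of these data known. Named by rule were Mki67, the member with the highest mean CPM in each of 8 role groups, the called members, and in each other list the called genes with the 3 lowest adjusted p-values per direction. Other named genes were chosen after their values were seen. Alternatives were DESeq2 1.42.0, limma-voom, library-size scaling, robust fitting, no expression limit, only the compared groups, a replicate block, covariates, other thresholds and leaving out each sample.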

Additional observations from a re-analysis of the deposited data

Results flagged for a closer look

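Single samples were examined for 18 measures in each of the 6 groups, 108 in all, and in 9 (8.33%) the most extreme sample lay further from its neighbour than Dixon's 95% limit allows. Chance alone marks about 1 in 20 groups.

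ResKCs of WD-fed mice at 24 weeks included 1 sample, replicate 4, that was high for 3 G2/M genes: Kif20a at 27.7 CPM (others 12.3 to 15.7), Foxm1 at 23.9 CPM (others 10.7 to 14.5) and Bub1b at 42.1 CPM (others 21.1 to 28.9). Without it 8 members were called in the 24-week diet comparison, and the share of all genes called in that fit is not given. Among SD samples at 24 weeks, Foxm1 in replicate 3 was at 10.9 CPM against 3.03 to 5.60 CPM.

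At 12 weeks, E2f1 was low in SD replicate 7, at 37.4 CPM against 47.4 to 53.2 CPM. Among WD samples of 12 weeks, Plk1 was low in replicate 2, at 9.29 CPM against 12.9 to 13.5 CPM, and Pcna was high in replicate 3, at 71.9 CPM against 61.7 to 63.4 CPM.

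CLEC4F- macrophage replicate 4 was high both for Clec4f, at 5488 CPM against 294 to 1539 CPM, and for E2f1, at 48.7 CPM against 34.0 to 38.2 CPM.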

How the results depend on the processing

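For WD against SD at 24 weeks, 20 members were called in the edgeR fit. There were 13 with the naming scheme as a covariate, 8 with the immediate-early and heat-shock covariate, 12 in the first naming scheme alone (chosen after seeing the data), 1 with a log2 limit of 1.5 and an adjusted p under 0.01, and 8 to 22 when one sample was left out. The other settings gave 14 to 24. The share of all genes called is not given for the other fits of this section. A change in the members' calls therefore cannot be set against that of all genes. The members' median log2 fold change, 0.80, was 0.77 with the naming-scheme covariate, 0.85 with the immediate-early covariate and 0.76 in the first scheme. Plk1, Mki67, Kif20a, Tpx2 and Prc1 were called in 11 of 11 other tools, scalings, filters, covariates and subsets at the same threshold. The difference in score was 0.72, 0.62 to 0.80 with one sample left out, and 0.37 over S phase genes alone.

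Against CLEC4F- macrophages, the 4 calls of ResKCs became 1 with the added log2 limit of 1 and 0 with the stricter rule, and 3 to 4 with one sample left out. The 1 call of moKCs became 3 in the first scheme, 0 with either limit, and 1 to 2 with one sample left out. The diet-by-time interaction had 1 call without the 2 low SD samples of 12 weeks. The causes were not tested. No result turned direction past a threshold.

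The sources do not say that a replicate number marks shared mice, and no comparison had every same-numbered pair correlated above 0.1. Correlations of same-numbered deviations were -0.02 to 0.13 over 6 pairs of WD and SD at 24 weeks (2 best with their own number), 0.02 to 0.26 for ResKCs and CLEC4F- macrophages (4 of 6 above 0.1 and 5 of 6 best with their own number, a hint from the data) and -0.12 to 0.10 for moKCs (1 of 5). In comparisons of diets or times the replicate block joined different mice by number alone. With the block 24 members were called in the diet comparison, and 0 for moKCs against CLEC4F- macrophages, where Kif23 was at 0.78 (adjusted p = 0.0756) and the calls of Gmnn, Rfc2, Csf1r, Cdkn2b, Rb1 and E2f2 were lost too (adjusted p 0.0595 to 0.309). The block also ended the calls of Ccne1 and Cdc25a in the diet comparison, Fzr1 between times on WD and Chaf1b in ResKCs against CLEC4F- macrophages, and gave calls to Cdk1 and Top2a.

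With one sample left out, score differences were -0.32 to -0.05 for SD at 24 minus 12 weeks, 0.17 to 0.43 for diet at 12 weeks, 0.13 to 0.31 for WD at 24 minus 12 weeks, -0.09 to 0.10 for ResKCs minus CLEC4F-, -0.25 to 0.06 for ResKCs minus moKCs and -0.04 to 0.27 for moKCs minus CLEC4F-. Library-size scaling moved the median of all genes by -0.12 for ResKCs against CLEC4F- macrophages. In the library with the fewest counts, 3 counts are 0.259 CPM on the unscaled library size. The TMM factor of this library was 1.07, so its floor is slightly lower on the scale of the printed values. Such a floor limits low genes such as Cdkn2b in CLEC4F- macrophages.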
